A study of Homo sapiens with 6 samples.

Results

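The 34 genes described here are hypoxia-induced genes outside glycolysis. They form a list of transcripts known to rise when oxygen is low, given as gene symbols with no threshold on a measured value, with the glycolysis, VEGFA and mitophagy genes left out. They were taken from 62252 genes after the deposited estimated counts and TPM values of all transcripts of a gene had been summed. TPM expresses abundance relative to transcript length and to the library total. Of the 34 members, 28 had a mean count above 10 and were tested, and 6 were not.

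K562 is a human erythroid leukemia cell line. PolyA RNA was sequenced from a K562 line without doxycycline (−Dox, 3 libraries) and with doxycycline (+Dox, 3 libraries). Both groups carried the same Flag-PCBP1 cassette under a tet-inducible promoter. It had been exchanged by RMCE (recombinase-mediated cassette exchange) into a floxed site at the AAVS1 locus of K562 flox cells, which came from 1 clone, and cells with the cassette were kept as a polyclonal population under puromycin. The groups therefore differed in Dox and in Flag-PCBP1 expression, and the effects of the drug and of the protein cannot be told apart. The dose and duration of Dox for these libraries are not given in the sources used here. No source says that the 3 libraries of a group came from separate cultures, so the p-values measure only the spread between these libraries.

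Hypoxia-inducible factor (HIF) is a pair of an oxygen-labile alpha subunit (HIF1A or EPAS1) and the stable partner ARNT. Iron-dependent prolyl hydroxylases (EGLN1, EGLN2 and EGLN3) mark the alpha subunit for VHL and the proteasome when oxygen and iron are present, and without either of them HIF builds up and binds the hypoxia response element, whose core reads ACGTG or GCGTG. Its targets outside glycolysis include repressors of transcription, brakes on mTORC1, collagen-modifying enzymes, glycogen and lipid genes and secreted factors. Several of them also answer to other signals, DDIT4 among them, which the transcription factor ATF4 induces during amino acid or endoplasmic reticulum (ER) stress.

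The promoters of the 4 members that fell in +Dox are shown so that the matches to this core can be read in sequence. Each is the 250 bases before a RefSeq start site, from the GRCh38.p14 promoter table, written 5′ to 3′ on the strand of the gene. Capitals mark the matches to ACGTG or GCGTG on either strand, and a reverse-strand match reads CACGT or CACGC. The palindrome CACGTG holds ACGTG on both strands and counts as 2 overlapping matches. DDIT4 lies at chr10:72273674-72273923 (+), BHLHE40 at chr3:4979187-4979436 (+), ERO1A at chr14:52695559-52695808 (−) and AK4 at chr1:65147302-65147551 (+).
DDIT4: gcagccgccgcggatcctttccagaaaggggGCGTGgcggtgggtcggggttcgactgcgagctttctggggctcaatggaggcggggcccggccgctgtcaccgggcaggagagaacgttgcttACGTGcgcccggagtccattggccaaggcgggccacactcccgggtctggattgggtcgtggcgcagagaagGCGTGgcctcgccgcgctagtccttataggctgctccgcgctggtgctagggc
BHLHE40: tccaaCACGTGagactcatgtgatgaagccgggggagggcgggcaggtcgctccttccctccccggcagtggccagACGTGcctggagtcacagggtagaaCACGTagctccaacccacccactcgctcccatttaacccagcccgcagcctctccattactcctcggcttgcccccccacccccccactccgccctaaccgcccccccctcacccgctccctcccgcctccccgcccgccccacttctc
ERO1A: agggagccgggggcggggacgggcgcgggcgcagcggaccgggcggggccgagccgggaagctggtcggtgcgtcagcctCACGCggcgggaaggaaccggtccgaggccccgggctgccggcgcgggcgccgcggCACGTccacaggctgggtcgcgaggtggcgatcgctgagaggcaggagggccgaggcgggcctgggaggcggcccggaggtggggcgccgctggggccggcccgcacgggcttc
AK4: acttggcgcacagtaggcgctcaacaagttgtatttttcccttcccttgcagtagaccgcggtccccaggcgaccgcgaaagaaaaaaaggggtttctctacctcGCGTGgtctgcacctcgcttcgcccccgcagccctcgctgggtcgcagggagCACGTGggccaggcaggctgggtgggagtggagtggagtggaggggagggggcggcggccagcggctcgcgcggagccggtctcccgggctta
The DDIT4 promoter held 3 matches, 1 of them ACGTG, and that of BHLHE40 held 4, all ACGTG. The ERO1A promoter held 2 matches and the AK4 promoter 3. Among the members that rose, the promoter of CITED2 held 2 matches, both ACGTG, and that of PLOD2 3, 2 of them ACGTG, while the window read for P4HA2 held 0. The start site used for DDIT4, BHLHE40 and ERO1A is that of their coding transcript with the most TPM and counts. That of AK4 lies 118 bases upstream of the start of its coding transcript with the most TPM and 651 bases upstream of the one with the most counts.

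In −Dox, replicates 1, 2 and 3 held totals of 84177316, 80104627 and 74766040 estimated counts. In +Dox the totals were 70905656, 82263502 and 82449808. Genes were compared with edgeR's quasi-likelihood test, run on all 21045 genes that passed the filter, two-sided, with Benjamini-Hochberg adjustment over all of them. A gene was called higher or lower at an adjusted p under 0.05. CPM values are counts relative to the library total with TMM scaling. They are set side by side between libraries only, while levels of different genes are compared in TPM. The induced gene PCBP1 stood at 248, 270 and 267 CPM in −Dox and at 1030, 936 and 1037 CPM in +Dox. Its log2 fold change was 1.94 ± 0.055 (SE; edgeR adjusted p = 5.22e-10), and an exact permutation test of the 6 CPM values gave p = 0.1, the smallest that 3 against 3 libraries allow.

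The K562 identity was checked on markers. All 12 erythroid markers were detected and tested, with 3580 ± 248 CPM of HBG2, a fetal globin, in −Dox (SD, n = 3) and 3620 ± 181 CPM in +Dox. In +Dox, 5 of the 12 were called higher and 2 lower, where 8.16% of all genes tested were higher and 7.68% lower. ALAS2, the first enzyme of erythroid heme synthesis, had a log2 fold change of 1.53 (edgeR adjusted p = 2.5e-08). EPOR, the erythropoietin receptor, had 0.97, TAL1, an erythroid transcription factor, 0.44, and TFRC, the transferrin receptor, −0.34. Of 8 markers of other cells, 4 passed the count filter and none was called. EPCAM, an epithelial adhesion protein, was the most abundant of them, with 36.7 ± 1.69 TPM in −Dox (SD, n = 3) and 32.6 ± 1.43 TPM in +Dox. Its mean over the 6 libraries, 34.6 TPM, lay above those of ALAS2 (32.8), TAL1 (15.2) and EPOR (10.8). It lay below those of the other erythroid markers. CD3E, CD14 and COL1A2 had at most 14 counts in any library and MS4A1 had 0 in all 6. In bulk libraries such as these, fewer cells that express a gene and less RNA per cell cannot be told apart.

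Across the members, 4 of the 28 tested fell in +Dox (14.3%) and 3 rose (10.7%), while over all genes tested 7.68% fell and 8.16% rose. DDIT4, BHLHE40, ERO1A and AK4 fell, and CITED2, P4HA2 and PLOD2 rose. With 1 library left out, members called lower numbered 3 to 5 and members called higher 0 to 2. The median log2 fold change of the 28 was −0.010, beside 0.0061 over all genes tested, with 15 values below 0 and 13 above. The sign of the member median depended on which library was left out. In 7 members, 4 lower and 3 higher, no −Dox value lay within the +Dox range, while 15.8% of all genes tested were lower without overlap and 17.4% higher. In 21 members the groups overlapped. With the added limit of an absolute log2 fold change above 1, DDIT4 alone was called, where 0.727% of all genes tested were called lower under both limits.

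**Figure D1:**
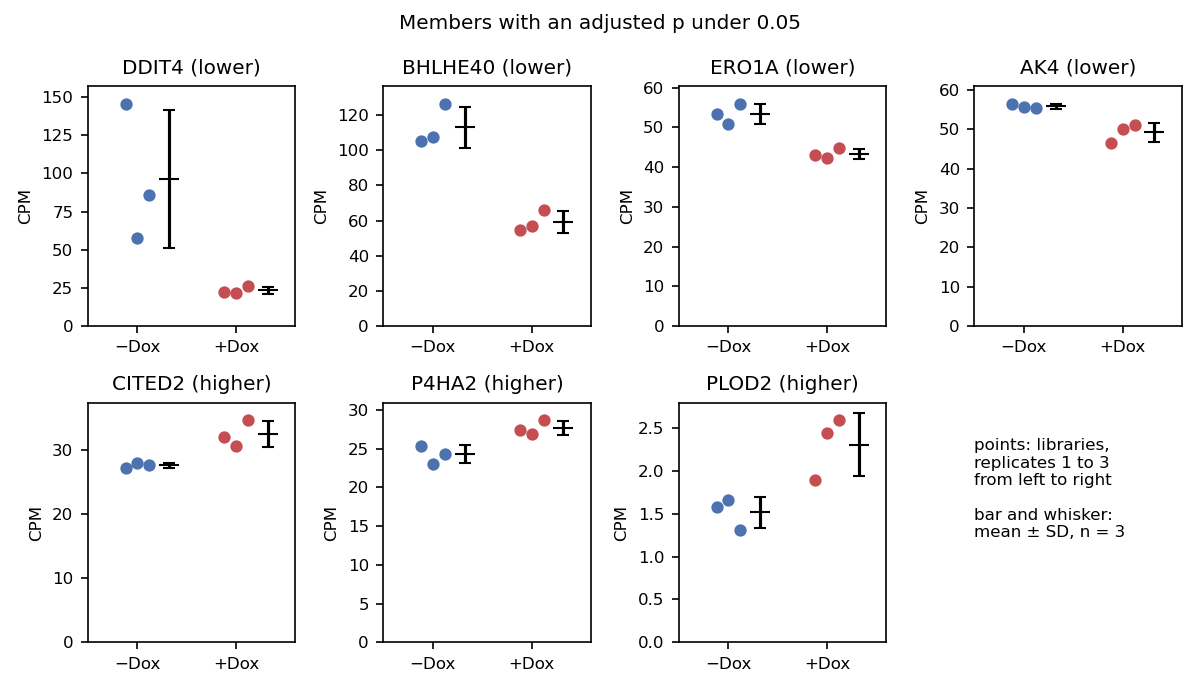
CPM of the 7 members with an adjusted p under 0.05 in each of the 6 libraries, on axes that start at 0. Blue points are −Dox and red points +Dox, and the bar with whiskers is the mean ± SD of 3 libraries. The groups do not overlap in any panel, and the DDIT4 points spread most within −Dox, from 57.5 to 146 CPM.

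DDIT4 (REDD1), a stress-induced brake on mTORC1, had the largest fall. Its 3 −Dox libraries gave 146, 57.5 and 85.9 CPM, and its +Dox libraries gave 22.6, 21.7 and 26.1 CPM. Every +Dox library lay below every −Dox library, and −Dox replicate 1 stood well above the other two. The log2 fold change was −2.04 ± 0.241 (SE; edgeR adjusted p = 1.27e-04), with means of 96.4 ± 45 CPM in −Dox and 23.4 ± 2.3 CPM in +Dox (SD, n = 3), so +Dox held 0.243 of the −Dox level. Without −Dox replicate 1 it was −1.62 (edgeR adjusted p = 2.94e-06). The gene lies on chromosome 10 from 72273919 to 72276036, plus strand (GRCh38, GENCODE 44).

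BHLHE40 (DEC1), a basic helix-loop-helix repressor that takes part in the circadian clock, fell by 47.8% with a tighter spread. It was measured at 105, 108 and 127 CPM in −Dox and at 54.5, 56.7 and 66.1 CPM in +Dox. Every +Dox library lay below every −Dox library, and replicate 3 was the highest of each group. The log2 fold change was −0.94 ± 0.081 (SE; edgeR adjusted p = 1.01e-05), short of the limit of 1. The gene lies on chromosome 3 from 4979437 to 4985323, plus strand. Of its exon bases, 12.8% overlap the antisense gene BHLHE40-AS1, which had means of 2.1 CPM in −Dox and 0.864 CPM in +Dox and was called lower (log2 fold change −1.28, edgeR adjusted p = 0.00134). The strand setting of the counting is not stated, so reads of this overlap cannot be told apart. BHLHE41, the closest relative of BHLHE40, had 0 counts in all 6 libraries.

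ERO1A, the oxidase that drives disulfide formation in the ER, fell by 18.8%. It was measured at 53.3, 50.9 and 56 CPM in −Dox and at 43, 42.4 and 44.8 CPM in +Dox, with a gap between the groups wider than the range within either. The log2 fold change was −0.30 ± 0.054 (SE; edgeR adjusted p = 0.00252). The gene lies on chromosome 14 from 52639915 to 52695900, minus strand. AK4, an adenylate kinase of the mitochondrial matrix, was measured at 56.5, 55.8 and 55.3 CPM in −Dox and at 46.5, 50.2 and 51.1 CPM in +Dox. Its log2 fold change was −0.18 ± 0.053 (SE; edgeR adjusted p = 0.0336), and it was called in 6 of 15 settings of the analysis, while DDIT4, BHLHE40 and ERO1A were called in all 15. Of the 6 libraries left out in turn, only the omission of +Dox replicate 3 kept the AK4 call. AK4 lies on chromosome 1 from 65147549 to 65232145, plus strand.

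The 3 members that rose were CITED2, P4HA2 and PLOD2. CITED2, which competes with HIF for the coactivators CBP and p300, was measured at 27.3, 28 and 27.7 CPM in −Dox and at 32.1, 30.7 and 34.7 CPM in +Dox (log2 fold change 0.23 ± 0.059 SE, edgeR adjusted p = 0.018). It was called in 9 of 15 settings, and the call was lost without −Dox replicate 2, −Dox replicate 3 or +Dox replicate 3. P4HA2, a catalytic subunit of collagen prolyl 4-hydroxylase, was measured at 25.4, 23.1 and 24.4 CPM in −Dox and at 27.4, 26.9 and 28.7 CPM in +Dox (log2 fold change 0.19 ± 0.059 SE, edgeR adjusted p = 0.0463). PLOD2, a lysyl hydroxylase of collagen, was measured at 1.57, 1.66 and 1.31 CPM in −Dox and at 1.89, 2.44 and 2.59 CPM in +Dox (log2 fold change 0.61 ± 0.191 SE, edgeR adjusted p = 0.0481). P4HA2 and PLOD2 were each called in 4 of 15 settings. Over the 15 settings the PLOD2 log2 fold change ranged from 0.19 to 0.73. In TPM the PLOD2 groups overlapped, at 0.558, 0.482 and 0.366 in −Dox and 0.519, 0.759 and 0.757 in +Dox. With 1 library left out, P4HA2 was called only without −Dox replicate 1 and PLOD2 only without +Dox replicate 1. CITED2 lies on chromosome 6 from 139371807 to 139374648, P4HA2 on chromosome 5 from 132190147 to 132295315 and PLOD2 on chromosome 3 from 146035139 to 146163725, all on the minus strand.

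**Figure D2:**
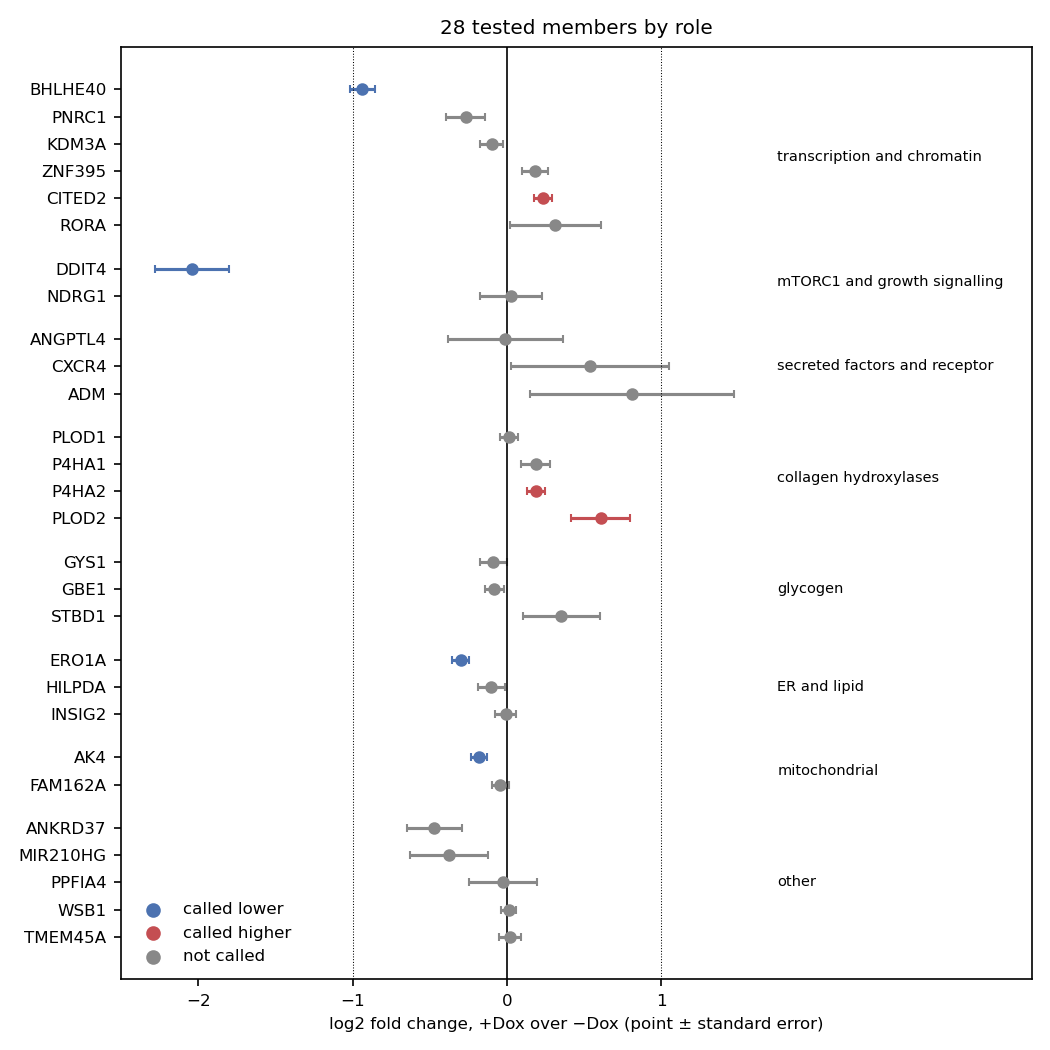
Log2 fold change of +Dox over −Dox for the 28 tested members, grouped by role, with the edgeR standard error as whiskers and dotted lines at −1 and 1. Blue points were called lower, red points higher and grey points were not called, and DDIT4 at −2.04 is the only member beyond either line.

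By role, no tested member among the secreted factors and receptor, the glycogen genes or the other genes was called, and neither carbonic anhydrase was tested. Among the members that act in transcription and chromatin, BHLHE40 was called lower and CITED2 higher of 6 tested. KDM3A, a histone H3 lysine 9 demethylase that itself needs iron, was measured at 88.2, 87.5 and 87.9 CPM in −Dox and at 71.3, 82.7 and 91.9 CPM in +Dox, where the groups overlapped (log2 fold change −0.10 ± 0.074 SE, edgeR adjusted p = 0.423). ZNF395, PNRC1 and RORA had log2 fold changes of 0.18, −0.27 and 0.31 and were not called. For growth signalling, NDRG1, named for its control by N-Myc, had means of 3.33 CPM in −Dox and 3.39 CPM in +Dox and a log2 fold change of 0.03 ± 0.200 (SE), beside the −2.04 of DDIT4. RRAGD, a Rag GTPase that recruits mTORC1 to the lysosome, had 2 to 17 counts and was not tested.

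All 4 collagen hydroxylases, which need iron and 2-oxoglutarate, were tested. P4HA2 and PLOD2 were called higher and the other members were not. P4HA1, the main catalytic subunit of prolyl 4-hydroxylase, was measured at 69.1, 77.8 and 81.3 CPM in −Dox and at 75.2, 81.8 and 102 CPM in +Dox (log2 fold change 0.18 ± 0.096 SE, edgeR adjusted p = 0.231). PLOD1 had a log2 fold change of 0.01 ± 0.059 (SE). None of the 3 tested glycogen genes was called. The glycogen synthase GYS1 had −0.09, the branching enzyme GBE1 −0.08 and STBD1, which tethers glycogen to membranes, 0.35. The GYS1 value depended on the setting, from −0.435 to −0.041 over 15 settings, and was never called. In TPM, GYS1 stood at 6.6 ± 0.268 in −Dox and 4.89 ± 0.699 in +Dox (SD, n = 3). STBD1 shares 88.5% of its exon bases with the readthrough gene FAM47E-STBD1 on the same strand, whose means were 0.778 CPM in −Dox and 0.0393 CPM in +Dox and which was called lower (log2 fold change −4.28, edgeR adjusted p = 5.77e-04). The split of counts between the pair is uncertain, and their summed CPM was 1.81 ± 0.209 in −Dox and 1.35 ± 0.156 in +Dox (SD, n = 3), the opposite direction to STBD1 alone. The sum was not tested.

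In the ER and lipid group, HILPDA, an inhibitor of the lipase ATGL, had a log2 fold change of −0.10 ± 0.087 (SE) and INSIG2, which holds the sterol sensor SCAP in the ER, −0.01 ± 0.069, beside the fall of ERO1A. Of the mitochondrial members, FAM162A had −0.04 ± 0.055, beside the fall of AK4. The secreted factors and the receptor were near the floor of detection. ADM, the vasodilator peptide adrenomedullin, CXCR4, the receptor of the chemokine CXCL12, and ANGPTL4, an inhibitor of lipoprotein lipase, had means between 0.117 and 0.445 CPM, and none was called. ADM had the largest log2 fold change of the uncalled members, 0.81 ± 0.662 (SE; edgeR adjusted p = 0.473). Over the 13 settings that tested it, the ADM value ranged from 0.21 to 1.58 and was never called. ANKRD37, an ankyrin repeat protein, had the lowest, at −0.47 ± 0.178 (SE; edgeR adjusted p = 0.0957), and its −Dox libraries gave 4.12, 4.43 and 5.03 CPM against 2.68, 2.79 and 4.31 CPM in +Dox. Without +Dox replicate 3, the highest of its group, it was called lower (log2 fold change −0.73, edgeR adjusted p = 0.0133). Of its exon bases, 40.3% overlap UFSP2 on the opposite strand, a gene with means of 28.9 CPM in −Dox and 30 CPM in +Dox, so the ANKRD37 values are uncertain. MIR210HG, the host transcript of miR-210, had −0.38 ± 0.251 (SE; edgeR adjusted p = 0.364) and the 3 others, WSB1, TMEM45A and PPFIA4, lay between −0.03 and 0.02.

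The 6 members that were not tested had at most 19 counts in a library. CA9, the tumour carbonic anhydrase often used as a marker of HIF activity, had 12, 11 and 19 counts in −Dox and 6, 4 and 5 in +Dox, so each −Dox library was above each +Dox library at a level too low for the test. Of its exon bases, 35.7% overlap ARHGEF39 on the opposite strand, a gene with means of 18.4 CPM in −Dox and 20.4 CPM in +Dox. STC1, a secreted glycoprotein, had 4, 5 and 12 counts in −Dox and 3 in each +Dox library. CA12, the second carbonic anhydrase, had 0 to 5 counts and PPP1R3C, which targets a phosphatase to glycogen, 0 to 8. All 6 were left out of the test by their low counts.

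Levels of the members spanned several orders of magnitude. Over the 6 libraries 13 members had a mean of 10 TPM or more, 9 had 1 to 10 TPM and 12 were under 1 TPM. FAM162A, a mitochondrial protein linked to cell death, was highest, at 90 ± 2.04 TPM in −Dox and 87.2 ± 5.47 TPM in +Dox (SD, n = 3). WSB1, the substrate receptor of a ubiquitin ligase, followed at 63.8 ± 4.67 and 62.9 ± 6.26 TPM. DDIT4 was at 58.4 ± 29.1 TPM in −Dox, within its spread of WSB1, and at 14.1 ± 1.04 TPM in +Dox. BHLHE40 went from 45.2 ± 4.59 to 22.5 ± 2.57 TPM. In −Dox, P4HA1 came next after BHLHE40, at 30.2 ± 1.72 TPM. Across the 13 members at 10 TPM or more, the median coefficient of variation of CPM was 4.75% in −Dox and 6.44% in +Dox. DDIT4 reached 46.7% in −Dox, where the next highest was 10.3%.

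ATF4 also induces DDIT4, so 12 genes of the ATF4 stress response were read in the same fit. Of the 12, 6 were called lower and 0 higher, where 7.68% of all genes tested were lower and 8.16% higher. CHAC1, which degrades glutathione, was measured at 3.45, 1.12 and 1.53 CPM in −Dox and at 0.465, 0.615 and 0.542 CPM in +Dox (log2 fold change −1.91 ± 0.370 SE, edgeR adjusted p = 0.00384). ATF3, a stress-induced transcription factor, was measured at 15.8, 8.31 and 10.9 CPM in −Dox and at 6.24, 6.52 and 6.15 CPM in +Dox (log2 fold change −0.89 ± 0.176 SE, edgeR adjusted p = 0.00433). CEBPB, PSAT1, SESN2 and ATF4 itself were the others called, with log2 fold changes from −0.40 to −0.24. DDIT3, ASNS, TRIB3, PHGDH, SLC7A11 and VLDLR were not called. The count of 6 became 3 without any 1 of the +Dox libraries, 2 with a transcript length offset and 0 with limma on log2(TPM + 1).

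−Dox replicate 1 was the highest −Dox library for DDIT4 and for 12 of the 12 ATF4 genes. It was the highest for 8 of the 28 tested members (28.6%) and for 36.6% of all genes tested. Its CPM was 2.03 times the mean of −Dox replicates 2 and 3 for DDIT4, 2.61 times for CHAC1, 1.66 times for SLC7A11 and 1.65 times for ATF3. The mean of −Dox replicates 2 and 3 was in turn 3.06 times the +Dox mean for DDIT4, 2.44 times for CHAC1, 1.04 times for SLC7A11 and 1.52 times for ATF3. For ATF4, SESN2, PSAT1, VLDLR and CEBPB it was between 1.11 and 1.23 times. It lay below the +Dox mean for ASNS (0.951 times), PHGDH (0.940), TRIB3 (0.975) and DDIT3 (0.994). The part of the ATF4 genes in the change of DDIT4 was not tested.

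**Figure D3:**
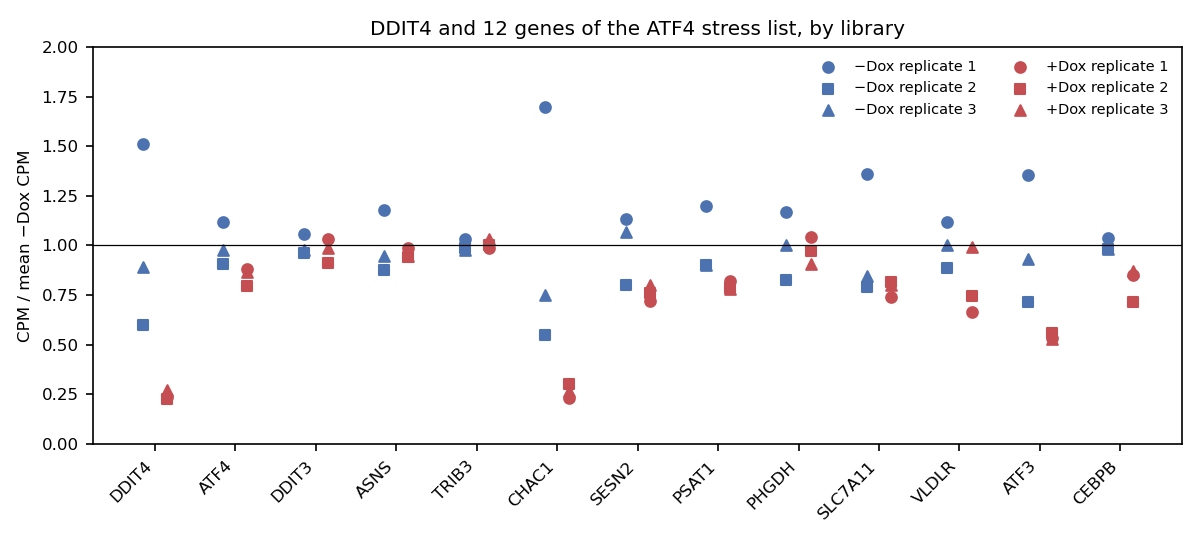
CPM of DDIT4 and of the 12 ATF4 stress genes in each of the 6 libraries, divided by the mean of the 3 −Dox libraries of that gene. Circles, squares and triangles are replicates 1, 2 and 3, blue for −Dox and red for +Dox. The blue circle is the highest −Dox point for all 13 genes, and the 3 red DDIT4 points lie together below every blue one.

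Of 16 genes that make or regulate HIF, 14 were tested, 1 was called lower (7.14%) and 0 higher, beside the same 7.68% and 8.16%. EGLN3, the prolyl hydroxylase that HIF itself induces, was measured at 11.3, 14.2 and 15.5 CPM in −Dox and at 8.37, 8.9 and 11.5 CPM in +Dox (log2 fold change −0.51 ± 0.130 SE, edgeR adjusted p = 0.0171). The call was lost without −Dox replicate 3, +Dox replicate 1 or +Dox replicate 2. HIF1A had 51.7 ± 1.13 CPM in −Dox (SD, n = 3) and 53.3 ± 2.1 CPM in +Dox. EPAS1 had 6.74 ± 1.15 and 6.62 ± 1.62 CPM, and neither was called. VHL, HIF1AN, ELOC and CREBBP, the next by p, had log2 fold changes of −0.11, −0.14, −0.10 and 0.12 and were not called. HIF3A and ARNT2 had at most 6 counts.

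The hypoxia-induced genes that the list leaves out, those of glycolysis with VEGFA and the mitophagy genes, were read in the same fit for comparison. All 24 were tested, 8 were called lower and 3 higher (33.3% and 12.5%, beside 7.68% and 8.16% of all genes tested), with a median log2 fold change of −0.12 beside 0.0061. SLC2A3, a glucose transporter, HK2, a hexokinase, and VEGFA, the angiogenic ligand, had log2 fold changes of −1.004, −0.65 and −0.52. SLC2A1, another glucose transporter, and ENO2, an enolase, had 0.40 and 0.43. In this fit the members outside glycolysis and this list thus each held genes called in both directions. With a transcript length offset, limma on either TPM scale, or some single libraries left out, 0 members were called higher. This list held 2 or 3 genes called higher in every setting. The difference between the lists was not tested.

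Transcripts were also tested one by one, over 86316 transcripts with a mean count above 10, of which 0.204% were called by edgeR at an adjusted p under 0.05. Of 111 transcripts of 26 members, 0 were called by edgeR. An unadjusted edgeR p under 0.05 was found for 14 of the 111 (12.6%), beside 10.0% of all transcripts tested. DESeq2 called 10 of the 107 that it gave an adjusted p (9.35%), beside 7.01% of all transcripts. The smallest adjusted p was that of BHLHE40-201, the coding transcript, with 33.4 ± 3.77 TPM in −Dox and 17.1 ± 1.65 TPM in +Dox (SD, n = 3; log2 fold change −0.90 ± 0.114 SE, edgeR adjusted p = 0.0702). It held 73.9 ± 4.15% of the BHLHE40 TPM in −Dox and 76 ± 3.86% in +Dox, so its share differed by less than the spread. For DDIT4 the coding transcript DDIT4-201 held 60 ± 5.52% in −Dox and 65 ± 0.686% in +Dox. A retained-intron transcript of DDIT4 held 11.3 ± 1.94% and 6.37 ± 2.56%, with a log2 fold change of −2.88 ± 0.544 (SE; edgeR adjusted p = 0.153). All 4 main DDIT4 transcripts had log2 fold changes below 0, from −2.97 to −1.59.

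By annotated class, 22 of the 28 tested members had most of their TPM on protein-coding transcripts. In 4 members most of it was assigned to transcripts annotated as retained introns, 86.7% in TMEM45A, 69.6% in WSB1, 65.2% in PPFIA4 and 59.7% in RORA. TPM weighs short transcripts more than counts do, and CPM and fold changes rest on counts. Of the estimated counts, retained introns held 95.7% in TMEM45A, 73.7% in WSB1 and 65.9% in RORA, but 31.2% in PPFIA4, where coding transcripts held 45.2%. For the members that fell, protein-coding transcripts held 60.4% of TPM in DDIT4, 74.5% in BHLHE40, 60.3% in ERO1A and 64.5% in AK4. Of the counts they held 62% in DDIT4, 94.8% in BHLHE40, 77.5% in ERO1A and 90.7% in AK4. Transcripts annotated for nonsense-mediated decay held another 35.2% of TPM and 21.9% of counts in ERO1A, and 18.8% and 14.3% in DDIT4.

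**Figure D4:**
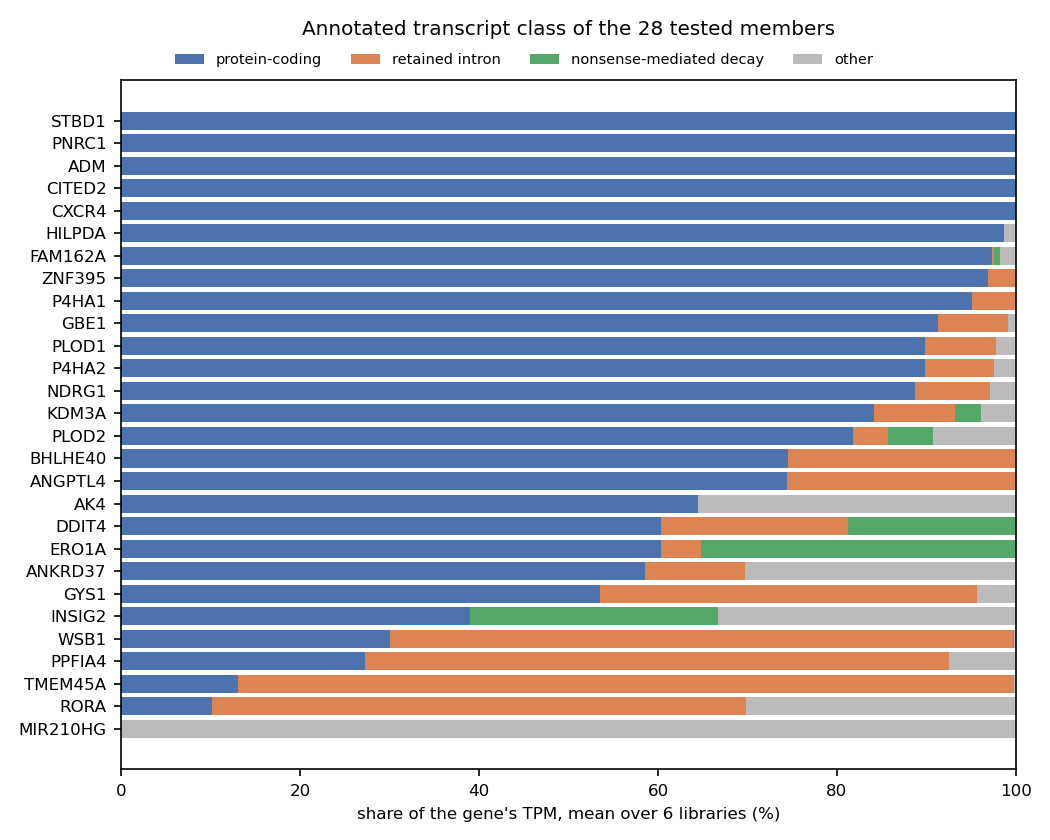
Share of the TPM of each of the 28 tested members on annotated transcript classes, as the mean over 6 libraries in percent. Blue is protein-coding, orange retained intron, green nonsense-mediated decay and grey other classes. TMEM45A, WSB1, PPFIA4 and RORA are mostly orange.

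The promoter table held 29 of the 34 members, with 1 promoter used for each, the closest to the start of its coding or long noncoding transcript with the most TPM. HILPDA, NDRG1, RRAGD, STC1 and ZNF395 were not in it. Either core, ACGTG or GCGTG on either strand, was found in the 250 bases of 26 of the 29 (89.7%), and ACGTG in 18 (62.1%). Counting all 38 promoters of these members, the shares were 86.8% and 50%. Over all 35116 promoters of the table the shares were 43.2% and 18.5%, and over the 17822 promoters of genes tested 53.1% and 21.6%. All 4 promoters used for members that fell held ACGTG, as did 2 of the 3 of members that rose, 9 of the 18 of members that were not called and 3 of the 4 of members that were not tested. This depends on the promoter chosen. The matches in AK4 and CITED2 promoters that were not used were all GCGTG. P4HA2, RORA and TMEM45A held neither core in the window read. Of 28 members with counts on a coding or long noncoding transcript, 24 had the RefSeq start within 100 bases of the start of the one with the most TPM, and AK4, P4HA2, PPFIA4 and RORA did not. For P4HA2 the RefSeq start lies 728 bases downstream of the transcript start and for RORA 601772 bases, so both windows lie inside the gene. For PPFIA4, whose window held ACGTG and counts among the matches, it lies upstream, at −24749 bases from that start, but at the start of its coding transcript with the most counts. By counts, 25 of the 28 lay within 100 bases, and AK4, P4HA2 and RORA did not. These matches describe the sequence and not the binding of a factor.

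**Figure D5:**
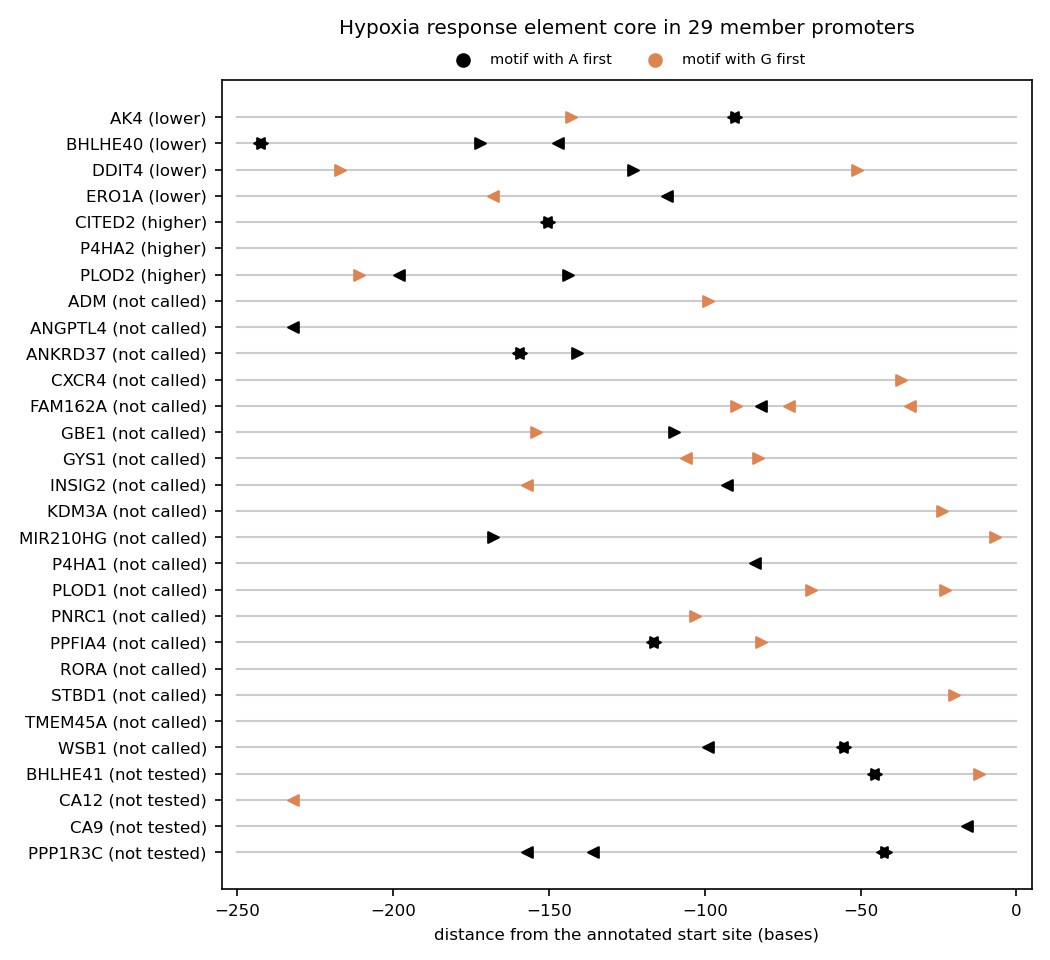
Matches to the hypoxia response element core in the 250 bases before the RefSeq start site of 29 members, by distance from that site in bases. Black marks are ACGTG and orange marks GCGTG, and the triangle points right for the strand of the gene and left for the other strand, with overlapping triangles at CACGTG. Members are grouped by their call in +Dox, and the first 4 lines are the members that fell.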

How the data were processed

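PolyA RNA of K562 cells with the Flag-PCBP1 cassette was read in 6 libraries, 3 −Dox and 3 +Dox. Reads were paired, of 150 cycles. The authors ran Salmon 1.10.2 and deposited, per transcript and library, estimated counts and TPM. The deposited estimated counts are not scaled. TPM was scaled by the authors' Salmon run for effective length and library total. FastQC, MultiQC, DESeq2 and STAR are also named in the submitters' processing notes. The index and the strand setting are not given in the sources used here.

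Transcripts were matched to GENCODE 44 on GRCh38. Of 252045 identifiers, 251142 matched with version, 251612 matched without regard to version, and 433, with 0.125% to 0.138% of the counts, did not match. Counts were summed per gene and rounded. The test was glmQLFTest after glmQLFit with TMM factors (edgeR 4.0.16, R 4.3.3), on genes, and separately on transcripts, whose mean count exceeded 10. SE is the absolute log2 fold change over the square root of F.

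The other 14 settings were DESeq2 1.42.0, RLE size factors, no filter on counts, at least 10 counts in every library, the replicate number as a block, a transcript length offset, limma 3.58.1 on log2(TPM + 1) and on log2(TPM + 0.1), and each of 6 libraries left out. The steps were tested on simulated data. Values in every library are given for members with an adjusted p under 0.05 or an absolute log2 fold change above 1, the rest by range and count with single values to show where a role differs, and up to 5 genes by p from each other list. Some marker genes under this rule are not reported here. KDM3A, P4HA1, ANKRD37, HIF1A, EPAS1, HBG2, SLC7A11 and the genes that overlap members were also named after their values were seen. The members and lists were chosen with earlier results of these data known. Replicates of a group differed by more than counting noise (chi-square of 8.34 to 17.9 per gene), so none was a repeat deposit. Figures were drawn with matplotlib 3.10.9.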

Additional observations from a re-analysis of the deposited data

How the results depend on the processing

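DDIT4, BHLHE40 and ERO1A were called lower in all 15 settings, with log2 fold changes from −2.31 to −1.62, −1.02 to −0.85 and −0.39 to −0.27. AK4, CITED2, P4HA2 and PLOD2 kept their direction in all 15 and were called in 6, 9, 4 and 4. ANKRD37 was called lower in 4 and P4HA1 higher in 1. Members called lower numbered 3 to 5. Members called higher, 3 in the report, numbered 1 with RLE size factors, 0 with a transcript length offset, 0 with limma on either TPM scale, and 0 to 2 with 1 library left out. Members past both limits were 2 with limma on log2(TPM + 0.1) and 1 to 2 with 1 library left out. The median of the members lay between −0.13 and 0.030 with 1 library left out, the lowest without +Dox replicate 3. HIF regulators called lower were 0 to 1 and ATF4 genes called lower 3 to 7 with 1 library left out. ATF4 genes called lower were 2 with the length offset and 0 with limma on either TPM scale. Member transcripts called were 10 with DESeq2 and 5 with at least 10 counts in every library. All genes called numbered 1882 with the length offset, 1586 with limma on log2(TPM + 1) and 1634 on log2(TPM + 0.1). The cause of these shifts was not tested.

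No pairing by replicate number was seen, as deviations of same-numbered libraries had correlations of 0.00752, −0.0605 and −0.00285. These were taken over all genes tested with 3 libraries per group, so a weak pairing could be missed. With the replicate number as a block, edgeR called 2490 genes beside 3333 without it. Members called higher were then 1 beside 3 without the block, and members called lower were 4 with and without it. Equal counts do not show that the same members were called.

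Of 389 values of single members under other settings, 30 turned direction, all of members not called in the report. With the length offset, limma on log2(TPM + 1) and limma on log2(TPM + 0.1), in this order, RORA had −0.26, −0.057 and −0.13, NDRG1 −0.18, −0.12 and −0.21, PLOD1 −0.010, −0.039 and −0.041, PPFIA4 0.22, 0.11 and 0.17 and the regulator CREBBP −0.13, −0.14 and −0.18. WSB1 had −0.022 and −0.023 on the TPM scales. With 1 library left out, NDRG1 ranged from −0.15 to 0.27, ANGPTL4 ranged from −0.24 to 0.18, PLOD1 ranged from −0.030 to 0.042, INSIG2 ranged from −0.061 to 0.031, FAM162A ranged from −0.073 to 0.010, TMEM45A ranged from −0.058 to 0.089, WSB1 ranged from −0.023 to 0.045 and PPFIA4 ranged from −0.23 to 0.25. The 6 members with the lowest counts were left out of the report's test by the filter on the mean count.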
